A study of Homo sapiens with 4 samples.

Results

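Transcripts of 39 adhesion genes were compared between imatinib-sensitive TF1-BA cells and imatinib-resistant TF1-BAR cells. The genes were chosen by symbol, from a list of integrins and other molecules that blood cells use to hold on to matrix and to other cells, and they make up 39 of the 32673 genes in the table. They comprise 13 integrin α subunits, 7 integrin β subunits, the selectin ligand SELPLG with CD44 and CD47, 9 adhesion molecules with immunoglobulin folds, 3 tetraspanins and 4 cytoplasmic partners of integrins. No selectin is in the list itself, and SELE and SELP are described with the other adhesion genes.

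TF1 is a human erythroleukaemia line that grows in the cytokine GM-CSF, and the labels list it as a line of chronic myeloid leukaemia. TF1-BA cells carry the BCR-ABL oncogene, a tyrosine kinase that imatinib inhibits, brought in by a retrovirus. TF1-BAR cells were derived from them by continuous imatinib treatment, so that both lines carry BCR-ABL and the comparison is of 1 resistant line with its sensitive parent. Whether TF1-BAR is a single clone is not given in the sources used here. The labels give GM-CSF at 2 ng/mL for both lines and 2 μM imatinib in the culture of TF1-BAR cells only, while the study's methods give a higher concentration of GM-CSF. Whether imatinib was in the medium at harvest is not given in the sources used here, so that an effect of the drug and a lasting difference between the lines cannot be told apart. The titles call the TF1-BAR libraries VECTOR, and what that vector was is not given in the sources used here. If only TF1-BAR cells carried it, its effect cannot be told apart from the difference between the lines either. RNA was sequenced in 2 libraries per line, each from 10000000 cells. Libraries held 15465497 to 18042299 fragments, and the 2 libraries of a line differed by more than sampling noise. Nothing in the labels says that the libraries of a line came from separate cultures, so the p-values below measure the spread between these libraries, which may be technical. In such bulk RNA, fewer cells that express a gene and less RNA per cell cannot be told apart.

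Integrins are receptors made of 1 α and 1 β subunit. The pair decides which matrix protein or counter-receptor is bound: ITGB1 pairs with many α subunits to bind fibronectin, laminins and collagens, ITGB2 pairs with ITGAL, ITGAM and ITGAX in leukocytes, and ITGB3, ITGB5 and ITGB8 pair with ITGAV to bind vitronectin and related ligands. Talin (TLN1) and kindlin (FERMT3 in blood cells) bind the β tail and switch the receptor on, and immunoglobulin-fold molecules such as the ICAMs and VCAM1 are its ligands on other cells. In the bone marrow, ITGA4 with ITGB1, CD44 and SELPLG are known to keep progenitor cells in place.

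Of the 39 genes, 35 had a mean of at least 0.5 FPKM (sequenced fragments scaled to 1 length per gene and to library size). They were tested together with all other such genes, 15519 in all, by limma on log2(FPKM + 0.5). A gene was taken as differentially expressed when its log2 fold change, TF1-BAR minus TF1-BA, was at least 1 in size and its adjusted p was under 0.05. On this log2 scale the change of a gene with low FPKM is understated. 4 of the 35 met both thresholds, against 4.75% of all genes tested. ITGB5, ESAM and ICAM3 were upregulated in TF1-BAR cells, 3 genes where the background is 3.05%, and ITGB4 was downregulated, 1 gene where the background is 1.69%. With the adjusted p alone, 12 of 35 passed against a background of 26.9%, of which 8 were higher (background 16.3%) and 4 were lower (background 10.5%). The 2 libraries of one line lay apart from the 2 of the other in 24 of 35 genes, a share close to the 69.3% of all genes tested. The median log2 fold change was 0.073 over the 35 genes and 0.066 over all genes tested, and 22 of the 35 estimates were above 0.

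**Figure D1:**
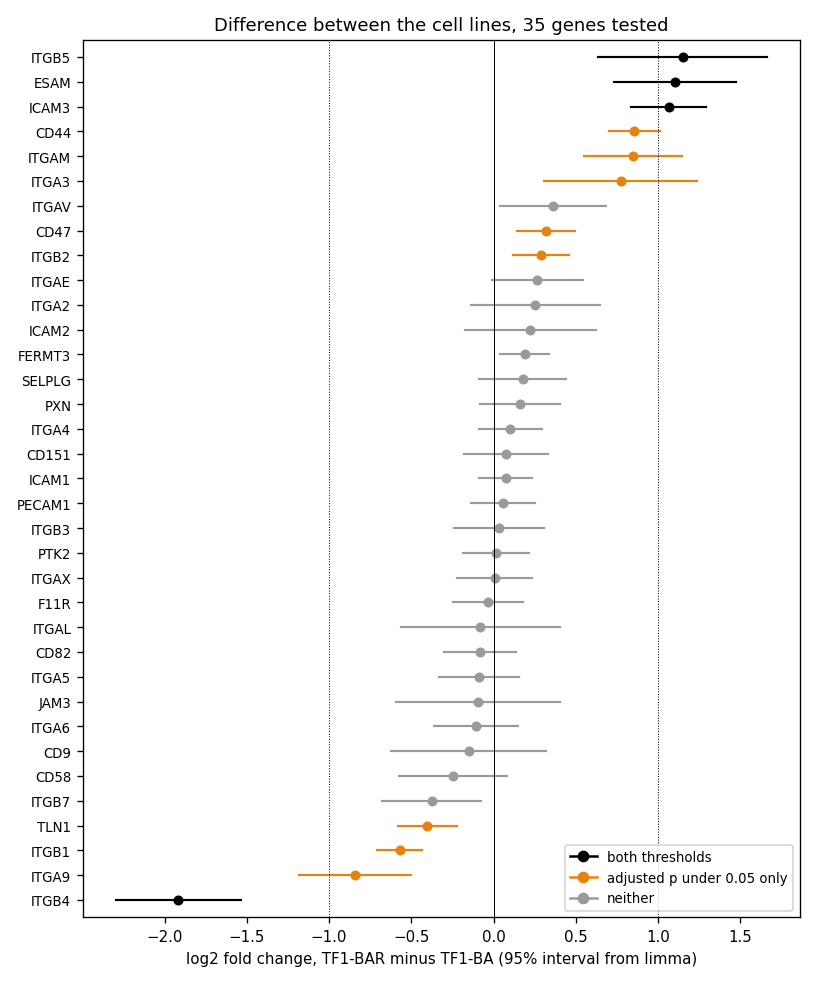
Log2 fold change of each of the 35 genes tested (x axis, TF1-BAR minus TF1-BA on log2(FPKM + 0.5), points) with its 95% interval from limma (lines), ordered by size on the y axis. Dotted lines mark a log2 fold change of 1 in each direction. ITGB4 lies far below the others at -1.92, and ITGB5, ESAM and ICAM3 are the 3 genes above 1.

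A design of 2 against 2 libraries allows no exact permutation p below 0.333, so the tests rest on limma's spread shared across genes. Leaving out either TF1-BA library, replicate 1 or replicate 2, ended every call among the 35 genes, also those by the adjusted p alone. With each of the 4 libraries left out in turn, the log2 fold change ran from -2.11 to -1.72 for ITGB4 and from 1.07 to 1.24 for ITGB5. It ran from 0.90 to 1.31 for ESAM and from 1.00 to 1.13 for ICAM3. All 12 genes kept their direction in each of these fits. Leaving out TF1-BAR replicate 2 left 7 genes with an adjusted p under 0.05, and ESAM and ITGB5 then no longer met both thresholds, while ITGA9 did. Leaving out TF1-BAR replicate 1 kept the 4 calls and added ITGAM.

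The 250 bases before the transcription start of the 5 genes with the largest change that passed the adjusted p and that have an entry in the RefSeq promoter table (GRCh38.p14, MANE Select start) are shown because these genes changed in both directions and their levels can be set beside 3 motifs of transcription factors of blood cells. Sequences run 5′ to 3′ in the direction of transcription. Capitals mark an ETS core (CGGAAG, or CTTCCG on the other strand) or a PU.1 core (GAGGAA, or TTCCTC on the other strand), and no GATA core (AGATAA, or TTATCT on the other strand) was found in them.
ITGB5 (chr3:124887366-124887615, minus strand): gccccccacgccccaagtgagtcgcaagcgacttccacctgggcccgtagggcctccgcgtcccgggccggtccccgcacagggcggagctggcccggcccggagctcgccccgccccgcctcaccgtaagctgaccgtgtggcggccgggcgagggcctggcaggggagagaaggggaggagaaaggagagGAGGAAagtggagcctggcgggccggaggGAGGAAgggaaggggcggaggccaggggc
ICAM3 (chr19:10339625-10339874, minus strand): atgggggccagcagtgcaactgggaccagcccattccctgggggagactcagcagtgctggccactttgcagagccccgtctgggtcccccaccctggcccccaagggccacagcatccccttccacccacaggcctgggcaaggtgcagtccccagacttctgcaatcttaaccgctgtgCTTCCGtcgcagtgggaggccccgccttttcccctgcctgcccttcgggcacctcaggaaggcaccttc
CD44 (chr11:35138921-35139170, plus strand): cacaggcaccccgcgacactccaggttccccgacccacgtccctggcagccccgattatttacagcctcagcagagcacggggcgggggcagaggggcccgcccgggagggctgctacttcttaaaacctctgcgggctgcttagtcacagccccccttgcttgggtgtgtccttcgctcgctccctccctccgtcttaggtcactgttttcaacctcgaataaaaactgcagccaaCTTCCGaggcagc
ITGAM (chr16:31259725-31259974, plus strand): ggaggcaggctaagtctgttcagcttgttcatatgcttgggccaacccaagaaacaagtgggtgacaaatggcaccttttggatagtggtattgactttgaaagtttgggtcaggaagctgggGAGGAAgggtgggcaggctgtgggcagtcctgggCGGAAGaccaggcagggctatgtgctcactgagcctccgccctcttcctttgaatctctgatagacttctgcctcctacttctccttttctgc
ITGB1 (chr10:32958231-32958480, minus strand): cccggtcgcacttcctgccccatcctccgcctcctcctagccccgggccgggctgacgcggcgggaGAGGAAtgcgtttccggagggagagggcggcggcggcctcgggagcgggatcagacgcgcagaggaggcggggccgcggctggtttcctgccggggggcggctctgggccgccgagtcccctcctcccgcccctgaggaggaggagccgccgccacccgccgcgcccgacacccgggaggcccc

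The ETS core lay 69 bases before the start of ICAM3, 13 bases before that of CD44 and 93 bases before that of ITGAM. The PU.1 core stood 58 and 29 bases before the start of ITGB5, 127 bases before that of ITGAM and 184 bases before that of ITGB1, the gene that fell. 23 of the 39 genes have an entry in the table, and among these 5 held the ETS core, 9 the PU.1 core and 0 the GATA core. Of all 35116 windows in the table, 16.5% held the ETS core, 23.6% the PU.1 core and 9.17% the GATA core. A match describes letters only, and a window without a match says nothing about binding.

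Among the 13 α subunits, 11 were tested, 0 met both thresholds in limma, 4 had an unadjusted p under 0.05, against 42.2% of all genes tested, and 3 an adjusted p under 0.05, a share close to the background of 26.9%. With limma voom on recovered fragments 1 of them, ITGA3, met both, and 4 passed the adjusted p. ITGAM and ITGA3 rose and ITGA9 fell, and the median log2 fold change of the 11 was 0.10. ITGAM (CD11b, the α subunit of the leukocyte receptor for ICAM1, fibrinogen and complement) read 29.3 and 30.3 FPKM in the TF1-BA libraries and 48.4 and 60.2 FPKM in the TF1-BAR libraries. Both TF1-BAR libraries were above both TF1-BA libraries, at 1.82 times their mean, and the TF1-BAR libraries lay further apart from each other (SD 8.37, n = 2) than the TF1-BA libraries did (SD 0.740, n = 2). Its log2 fold change was 0.85 (SE 0.116, limma adjusted p = 0.0114, and 0.0540 with no filter on low values).

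ITGA9, which pairs with ITGB1 to bind tenascin, osteopontin and VCAM1, read 6.08 and 5.73 FPKM in TF1-BA and 2.69 and 3.495 FPKM in TF1-BAR. The groups did not overlap, and the mean was 1.91-fold lower in TF1-BAR, a log2 fold change of -0.84 (SE 0.133, limma adjusted p = 0.0152, and 0.0637 with no filter on low values). ITGA3, the laminin-binding partner of ITGB1, read 0.385 and 0.442 FPKM in TF1-BA against 0.964 and 1.16 FPKM in TF1-BAR. These low values rest on 68 and 67 fragments in TF1-BA and on 149 and 183 in TF1-BAR, and all TF1-BAR values were higher. The ratio of mean FPKM was 2.57, while the log2 fold change on the scale with 0.5 FPKM added was 0.77 (SE 0.180, limma adjusted p = 0.0362). With 0.1 added it met both thresholds, while it did not pass the adjusted p with no filter on low values (0.0842), quantile normalization (0.0611), the replicate block (0.0552) or the chromosome median subtracted (0.0576).

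The other 8 α subunits tested did not pass. ITGA4, the α subunit of the fibronectin and VCAM1 receptor of marrow cells, was at 23.5 and 22.5 FPKM in TF1-BA and at 25.8 and 23.7 FPKM in TF1-BAR, with a 95% interval of the log2 fold change from -0.09 to 0.29. That interval holds no change of 2-fold in either direction. ITGA5, the fibronectin receptor subunit, gave an interval from -0.33 to 0.15 and ITGAX (CD11c), a partner of ITGB2, one from -0.22 to 0.24. ITGAV, the shared α subunit of vitronectin receptors, had 4.995 and 4.72 FPKM in TF1-BA and 7.15 and 5.68 FPKM in TF1-BAR, which did not overlap but had an adjusted p of 0.0941 in limma and 0.0150 in limma voom on fragments. The log2 fold changes of ITGAE, ITGA2, ITGAL and ITGA6 lay between -0.11 and 0.27, with adjusted p from 0.130 to 0.775. ITGA7 was not tested (35 and 30 fragments in TF1-BA, 11 and 24 in TF1-BAR), and ITGA1 had at most 3 fragments in any library.

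By level, ITGAM led the 13 in both lines, followed by ITGA4 and then ITGA5, and these neighbours in the order did not overlap. ITGA9 had rank 5 in TF1-BA, where its libraries overlapped those of ITGAX at rank 4, and rank 7 in TF1-BAR. FPKM is scaled to transcript length, so these levels can be set side by side between genes.

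**Figure D2:**
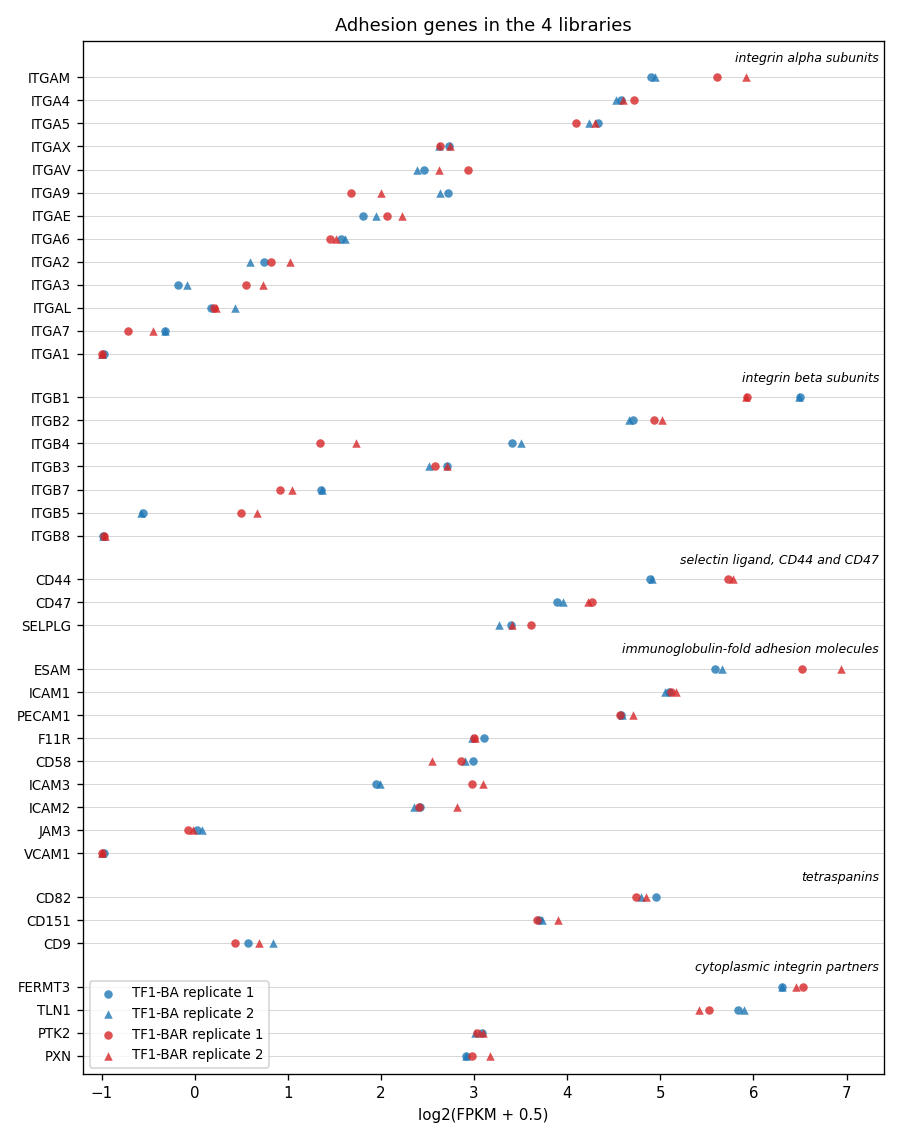
Level of each of the 39 genes in each of the 4 libraries (x axis, log2(FPKM + 0.5)), grouped by role and ordered by level on the y axis. Blue points are TF1-BA and red points TF1-BAR, with circles for replicate 1 and triangles for replicate 2. Red lies apart to the right for ITGAM, ITGB5, CD44, ESAM and ICAM3 and apart to the left for ITGB4, ITGB1 and ITGA9, while ITGA1, ITGB8 and VCAM1 sit at the floor.

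The β subunits held the largest fall among the 35 genes tested, that of ITGB4, and on this scale the largest rise, that of ITGB5. The rise of ITGB5 was smaller than that of ESAM with 1 FPKM added, with quantile normalization or without TF1-BAR replicate 1. Of the 7, 6 were tested, 2 met both thresholds (ITGB4 lower, ITGB5 higher) against a background of 4.75%, and 4 had an adjusted p under 0.05 (ITGB2 higher and ITGB1 lower as well), against 26.9%. ITGB4, which pairs with ITGA6 to bind laminin in hemidesmosomes of epithelia, read 10.1 and 10.8 FPKM in TF1-BA and 2.04 and 2.82 FPKM in TF1-BAR. Both TF1-BAR libraries were far below both TF1-BA libraries, with 217 and 306 fragments against 1229 and 1132. The mean fell 4.31-fold, from 10.5 ± 0.531 to 2.43 ± 0.551 FPKM (SD, n = 2 each), a log2 fold change of -1.92 (SE 0.148, limma adjusted p = 0.00446). ITGB4 (ENSG00000132470) lies at chr17:75721328-75757818 on the plus strand of GRCh38. GALK1, on the other strand, overlaps it and was at 6.15 and 6.51 FPKM in TF1-BA and 5.33 and 6.35 FPKM in TF1-BAR, with a log2 fold change of -0.11 that did not pass (limma adjusted p = 0.473). Its partner ITGA6 gave 2.47 and 2.56 FPKM in TF1-BA and 2.23 and 2.37 FPKM in TF1-BAR, a log2 fold change of -0.11 with an adjusted p of 0.462.

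ITGB5, a vitronectin receptor subunit (ENSG00000082781, chr3:124761948-124901418, minus strand), was low in TF1-BA, with 0.181 and 0.171 FPKM from 21 and 17 fragments. In TF1-BAR it read 0.915 and 1.09 FPKM from 93 and 113 fragments, so that every TF1-BAR value was above every TF1-BA value. The ratio of mean FPKM was 5.71 and the log2 fold change 1.15 (SE 0.199, limma adjusted p = 0.0189). The size of this change depends on the scale: 0.77 with 1 FPKM added and 0.996 with quantile normalization, both short of the fold threshold, and 2.48 with limma voom on the fragments. Its α partner ITGAV did not pass, as given above, and of the other β subunits that pair with ITGAV, ITGB3 gave a log2 fold change of 0.03 (interval -0.24 to 0.30), ITGB8 had at most 3 fragments in any library, and ITGB1 fell, as given next.

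ITGB1, the most abundant β subunit, read 89.8 and 89.4 FPKM in TF1-BA and 60.3 and 59.9 FPKM in TF1-BAR. It fell 1.49-fold, with a difference of lines many times the difference within a line (log2 fold change -0.57, SE 0.0539, limma adjusted p = 0.00605). ITGB1 lies on chromosome 10 (chr10:32900319-33005792), where the 593 genes tested had a median log2 fold change of -0.35, the lowest of all nuclear chromosomes. Minus that median, the log2 fold change of ITGB1 was -0.23 (limma adjusted p = 0.0430). ITGB2, the β subunit of ITGAM, ITGAL and ITGAX, rose from 25.6 and 24.9 FPKM to 30.0 and 31.9 FPKM, which did not overlap (log2 fold change 0.29, SE 0.0662, limma adjusted p = 0.0355). It did not pass with no filter on low values (0.0697), with eBayes without the trend (0.0797), with the chromosome median subtracted (0.0954) or with the replicate block. ITGB7, which pairs with ITGA4 and ITGAE in gut homing, gave 2.05 and 2.08 FPKM in TF1-BA and 1.39 and 1.57 FPKM in TF1-BAR, and did not pass (log2 fold change -0.38, limma adjusted p = 0.0725), although it did with quantile normalization (0.0365) and with limma voom (0.0292).

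To set the subunits side by side, their shares of the summed FPKM were also computed, as a description with no test. The limit on levels between genes given above holds for these shares too. Of the sum of the 7 β subunits, ITGB1 took 67.2% and 67.4% in TF1-BA and 60.2% and 58.0% in TF1-BAR. ITGB2 took 19.1% and 18.8% in TF1-BA and 30.0% and 30.8% in TF1-BAR, and ITGB4 went from 7.54% and 8.16% to 2.03% and 2.73%. The summed FPKM of the β subunits was 133.7 and 132.6 in TF1-BA and 100.1 and 103.3 in TF1-BAR. The sum of the 18 α subunits in the table went the other way, at 223.4 and 230.5 FPKM in TF1-BA and 276.3 and 307.2 FPKM in TF1-BAR. More than any list member, ITGA2B carried that sum: this platelet subunit, the partner of ITGB3, read 119.8 and 128.3 FPKM in TF1-BA and 158.5 and 175.8 FPKM in TF1-BAR (log2 fold change 0.43, limma adjusted p = 0.0204). It made up 53.6% and 55.7% of the summed α FPKM in TF1-BA and 57.4% and 57.2% in TF1-BAR. ITGAM was second, with 13.1% and 13.2% against 17.5% and 19.6%.

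**Figure D3:**
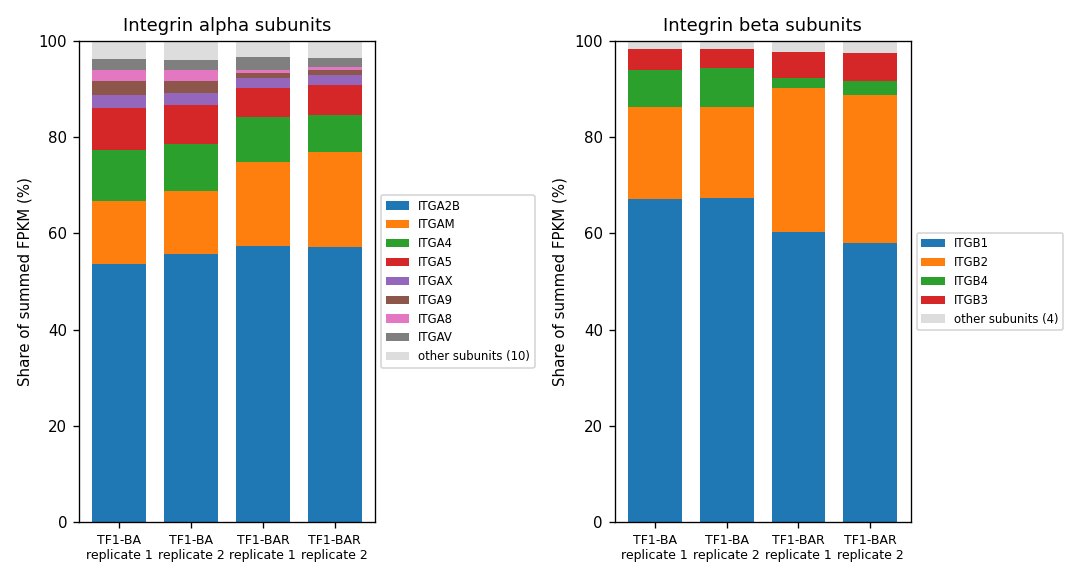
Share of each subunit in the summed FPKM of the 18 α subunits (left) and 8 β subunits (right) in the table, in percent (y axis), for each of the 4 libraries (x axis). Subunits with a mean share under 2% in both lines are joined in grey. Among β subunits, ITGB2 (orange) is near 19% in TF1-BA and near 30% in TF1-BAR, and ITGB4 (green) narrows from near 8% to 2% to 3%.

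CD44 and CD47 rose, 2 of 3 genes where 16.3% of all genes tested were higher by the adjusted p. The libraries of the lines were apart in all 3, as in 69.3% of all genes tested. CD44, the receptor for hyaluronan, read 29.0 and 29.5 FPKM in TF1-BA and 52.3 and 54.6 FPKM in TF1-BAR. These pairs were tight and far apart, at 29.3 ± 0.357 and 53.4 ± 1.63 FPKM (SD, n = 2 each), and the log2 fold change was 0.86 (SE 0.0608, limma adjusted p = 0.00409), below the fold threshold. CD47, a ligand of the macrophage receptor SIRPA and an integrin-associated protein, read 14.3 and 15.02 FPKM in TF1-BA and 18.7 and 18.2 FPKM in TF1-BAR (log2 fold change 0.32, SE 0.0680, limma adjusted p = 0.0301), and did not pass with no filter on low values, with eBayes without the trend or with the chromosome median subtracted (adjusted p of 0.0590, 0.0633 and 0.0501). SELPLG, the ligand of P-selectin, was at 10.0 and 9.13 FPKM in TF1-BA and 11.7 and 10.1 FPKM in TF1-BAR, a difference that did not pass (log2 fold change 0.18, limma adjusted p = 0.252).

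Of the 9 immunoglobulin-fold molecules, 8 were tested and 2, ESAM and ICAM3, were upregulated, against a background of 3.05%, while the other 6 did not pass with adjusted p from 0.207 to 0.794. ESAM, a junction molecule of endothelium and platelets that also marks haematopoietic stem cells, read 47.6 and 50.2 FPKM in TF1-BA and 91.6 and 121.9 FPKM in TF1-BAR. No value overlapped, and the mean rose 2.18-fold, from 48.9 ± 1.88 to 106.8 ± 21.4 FPKM (SD, n = 2 each), a log2 fold change of 1.10 (SE 0.143, limma adjusted p = 0.0103). Without TF1-BAR replicate 2, its log2 fold change was 0.90, with the chromosome median subtracted it was 0.995, and with no filter on low values the adjusted p was 0.0539. ESAM (ENSG00000149564, chr11:124752583-124762290, minus strand) is overlapped by AP000866.2 on the other strand, which read 2.27 and 2.19 FPKM in TF1-BA and 6.31 and 6.27 FPKM in TF1-BAR (log2 fold change 1.32, limma adjusted p = 0.00374). The setting for strand in counting is not given in the sources used here, and without strand the reads of such a pair cannot be told apart; ESAM had the higher level in every library.

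ICAM3, a leukocyte ligand of the integrin of ITGAL and ITGB2 (ENSG00000076662, chr19:10333776-10339823, minus strand), read 3.36 and 3.49 FPKM in TF1-BA and 7.36 and 8.08 FPKM in TF1-BAR. All TF1-BAR values were above the TF1-BA values, with 342 and 383 fragments against 179 and 159. The mean rose 2.25-fold, a log2 fold change of 1.06 (SE 0.0882, limma adjusted p = 0.00522). It fell short of the fold threshold with 1 FPKM added (0.977), with quantile normalization (0.9999) and with the chromosome median subtracted (0.953). ICAM1, which binds the same integrins, was at 33.6 and 32.6 FPKM in TF1-BA and 34.2 and 35.5 FPKM in TF1-BAR, with an interval of the log2 fold change from -0.09 to 0.23. PECAM1, a homophilic molecule of platelets and endothelium, gave an interval from -0.14 to 0.25, and F11R, a junction molecule, one from -0.24 to 0.18. ICAM2 (interval -0.17 to 0.62), the CD2 ligand CD58 (-0.57 to 0.08) and JAM3 (-0.59 to 0.40) were measured less tightly. VCAM1 had 1 fragment in all 4 libraries together.

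None of the 3 tetraspanins, which gather integrins into membrane microdomains, passed any threshold in limma, 0 had an unadjusted p under 0.05 there or in limma voom (background 42.2% in limma), and all 3 overlapped between the lines, where 69.3% of all genes tested did not. CD82 had log2 fold changes between -0.30 and 0.14 in its 95% interval, CD151 between -0.18 and 0.33, and CD9, at about 1 FPKM, between -0.62 and 0.32. Among the 4 cytoplasmic partners, TLN1 fell and the other 3 did not pass. TLN1 read 56.4 and 59.4 FPKM in TF1-BA and 45.4 and 42.0 FPKM in TF1-BAR, with no overlap (log2 fold change -0.40, SE 0.0696, limma adjusted p = 0.0190), but did not pass with no filter on low values (0.0580) or with eBayes without the trend (0.0501). CREB3, on the other strand, overlaps its end and was lower in level than TLN1 in every library. FERMT3, the kindlin of blood cells, was the second most abundant of the 39 genes in TF1-BA at 78.7 and 78.4 FPKM and read 92.0 and 87.4 FPKM in TF1-BAR (log2 fold change 0.19, limma adjusted p = 0.0693, but 0.0305 when rescaled to TPM and 0.0479 with quantile normalization). PXN, a scaffold of focal adhesions, and the kinase PTK2 gave intervals from -0.08 to 0.40 and from -0.19 to 0.21.

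The genome neighbourhood was compared because whole stretches of a chromosome can differ between lines. Within 1 Mb of ITGAM, the 56 genes tested had a median log2 fold change of 0.09 and 2 were differentially expressed. ITGAX, 22241 bases from the end of ITGAM, gave a log2 fold change of 0.01 against 0.85 for ITGAM. Near ICAM3, 53 genes had a median of 0.14 and 0 met both thresholds, and ICAM1, 47160 bases away, gave 0.07 against 1.06. Around ITGB4, 54 genes had a median of -0.04, and SPHK1 was the 1 gene of them that met both thresholds. For 3 of the genes that rose, the neighbours had higher medians than these: 0.40 over 9 genes near ESAM, 0.38 over 8 genes near ITGB5, and 0.48 over 9 genes near CD44. Of these, 3 near ESAM, 1 near ITGB5 and 0 near CD44 met both thresholds, against 4.75% of all genes tested. The part of these neighbours in the 3 results was not tested. ITGA9, which fell, had 23 neighbours with a median of 0.25, and ITGB1 had 4 with a median of -0.22.

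**Figure D4:**
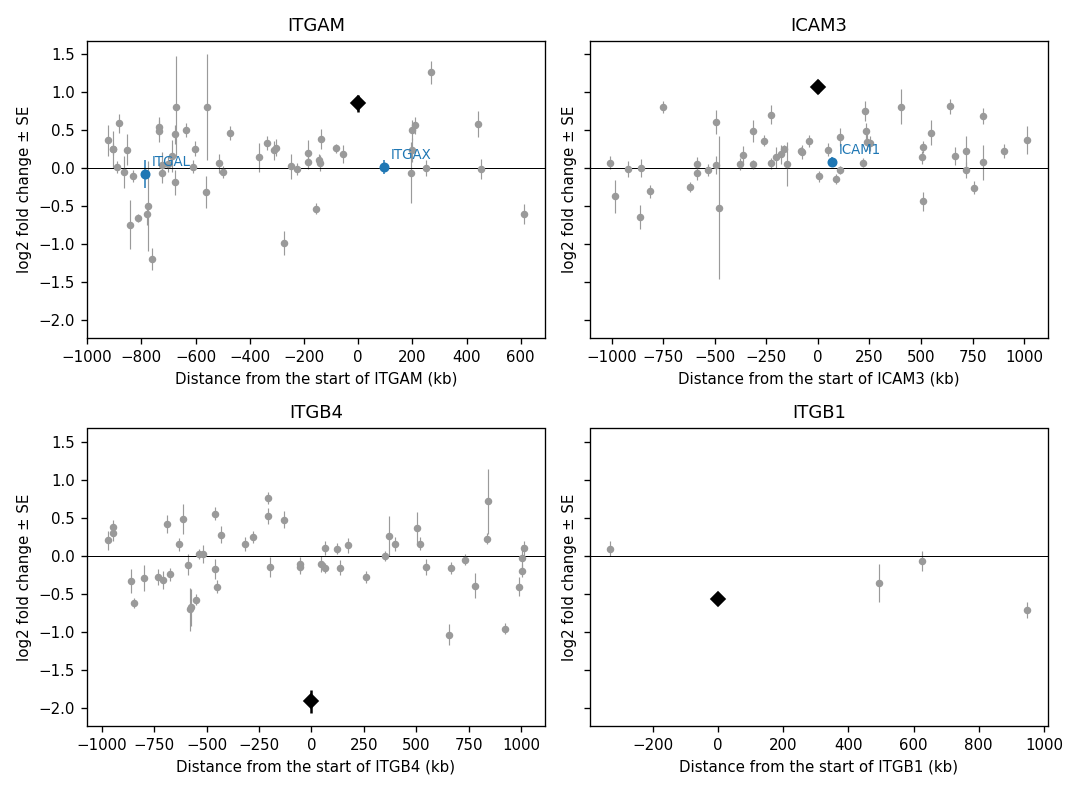
Log2 fold change ± SE (y axis, TF1-BAR minus TF1-BA) of the genes tested whose midpoints lie within 1 Mb of that of ITGAM, ICAM3, ITGB4 or ITGB1. The x axis gives the distance of their transcription starts from that of the named gene in kb, positive in its direction of transcription. The black diamond is the named gene, blue points are other genes of the list and grey points all others. ITGAX lies beside ITGAM near 0 and ICAM1 beside ICAM3 near 0, and ITGB4 at -1.92 is below all of its neighbours.

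Other genes of the same pathways were taken from a list of 162 symbols, of which 157 are in the table and 108 were tested. 7 of these met both thresholds, against the background of 4.75%, and 41 passed the adjusted p alone, against 26.9%. Of the 41, 29 were higher (background 16.3%) and 12 were lower (background 10.5%). The median log2 fold change was 0.08. Among 12 matrix ligands of integrins tested, 7 passed the adjusted p, all higher (background for higher genes 16.3%). Both thresholds were met by 2, also higher (background 3.05%). COL6A1, a chain of collagen VI, read 0.778 and 0.847 FPKM in TF1-BA and 3.29 and 3.66 FPKM in TF1-BAR (log2 fold change 1.597, limma adjusted p = 0.00424). COL6A2, another chain of it, read 3.35 and 3.87 FPKM in TF1-BA and 10.7 and 11.95 FPKM in TF1-BAR (log2 fold change 1.53, limma adjusted p = 0.00409).

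Of 13 other cell-cell molecules tested, 2 cadherins were upregulated, against a background of 3.05%. CDH2 (N-cadherin) went from 2.53 and 2.63 FPKM to 10.02 and 10.00 FPKM (log2 fold change 1.77, limma adjusted p = 0.00182), and CDH5 (the cadherin of endothelium) from 0.733 and 0.628 FPKM to 3.28 and 3.40 FPKM (log2 fold change 1.70, limma adjusted p = 0.00409). TSPAN32, a tetraspanin of blood cells, went from 5.51 and 5.42 FPKM to 14.3 and 16.0 FPKM (log2 fold change 1.39, limma adjusted p = 0.00344). NEDD9, a docking protein of the focal adhesion kinase pathway, went from 1.07 and 1.598 FPKM to 3.38 and 3.82 FPKM (log2 fold change 1.17, limma adjusted p = 0.0127). It fell short of the fold threshold with 1 FPKM added (0.987) and did not pass the adjusted p with no filter on low values (limma, 0.0611).

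ITGA8, a partner of ITGB1, was the 1 gene of this list that was downregulated, from 5.24 and 5.37 FPKM to 1.86 and 1.93 FPKM (log2 fold change -1.28, limma adjusted p = 0.00409), and it lies, like ITGB1, on chromosome 10. Minus the median of that chromosome its log2 fold change was -0.93 (limma adjusted p = 0.00697), below the fold threshold. Of 15 tested genes of selectins and selectin ligand synthesis, 0 met both thresholds and 5 passed the adjusted p, all higher, where the background for higher genes is 16.3%. SELP (P-selectin) was one of these, at 1.03 and 0.889 FPKM in TF1-BA and 1.69 and 1.87 FPKM in TF1-BAR (log2 fold change 0.64, limma adjusted p = 0.0298). SELE had 1 fragment in all 4 libraries together and was not tested. Against the same background of 16.3% higher and 10.5% lower at the adjusted p, the cytoplasmic partners outside the main list had 7 higher and 6 lower of 35 tested. Other tetraspanins had 4 higher and 3 lower of 17 tested, partners of CD44 and CD47 had 1 higher and 2 lower of 13, and the other cell-cell molecules 4 higher and 0 lower of 13.

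The summed levels of the marker lists of cell types differed between the lines, some higher and some lower in TF1-BAR. The summed level of the 8 genes for stroma and endothelium was 17.4 to 17.9 FPKM in TF1-BA and 52.0 to 63.7 FPKM in TF1-BAR. Of its stromal genes, LUM rose, from 0.276 and 0.150 FPKM to 1.18 and 1.096 FPKM (log2 fold change 1.20, limma adjusted p = 0.0173), and COL1A1, COL1A2, DCN and PDGFRB were under 0.5 FPKM in every library. KDR, a receptor of endothelial growth factor, gave most of that sum, with 9.90 and 9.70 FPKM in TF1-BA and 35.5 and 45.5 FPKM in TF1-BAR (log2 fold change 1.98, limma adjusted p = 0.00384). The sum of this list, which holds CDH5 itself, was higher in TF1-BAR, as ESAM was, and its part in that result was not tested. The 4 platelet markers in the table summed to 135.7 to 144.9 FPKM in TF1-BA and 188.6 to 210.9 FPKM in TF1-BAR, most of it ITGA2B itself, and the 6 markers of myeloid progenitors to 132.6 to 141.7 and 232.9 to 240.1 FPKM. CD34, a ligand of selectins and 1 of these 6 markers, rose (log2 fold change 1.17, limma adjusted p = 0.00409). The 7 erythroid markers that define the line were present in both, at 273.1 to 278.4 FPKM in TF1-BA and 247.0 to 251.4 FPKM in TF1-BAR, with GATA1 between 65.9 and 75.4 FPKM. Monocyte markers summed to 0.317 and 0.542 FPKM in TF1-BA and 1.68 and 1.57 FPKM in TF1-BAR, a low level in both lines. Of these, CSF1R rose (0.215 and 0.326 against 1.34 and 1.32 FPKM, log2 fold change 1.25, limma adjusted p = 0.0124), while CD14 was at 0 in 3 of the 4 libraries, and their part in the result for ITGAM was not tested. Lymphocyte markers summed to 22.3 to 24.2 FPKM in TF1-BA and 10.2 to 10.5 FPKM in TF1-BAR. Most of this was CD3D, at 19.2 and 20.7 FPKM in TF1-BA and 5.74 and 6.36 FPKM in TF1-BAR, while CD79A rose (log2 fold change 0.61, limma adjusted p = 0.0260). CD3E had at most 1 fragment in any library. The 5 epithelial markers summed to 41.1 to 44.2 FPKM in TF1-BA and 67.5 to 68.1 FPKM in TF1-BAR, mostly KRT18, while ITGB4 fell. EPCAM had at most 4 fragments in any library.

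The order and direction of the 12 changed genes were compared under other scalings, filters and tests. All 12 kept their direction wherever they were tested. ITGB4 was the 1 gene that met both thresholds in every fit that kept all 4 libraries, with log2 fold changes from -2.12 to -1.75. ICAM3 ranged from 0.95 to 1.17, and CD44, the most tightly measured of the genes that rose, from 0.75 to 0.92. ITGB5 and ITGA3, the 2 with the lowest level, ranged most, from 0.77 to 2.48 and from 0.54 to 1.36.

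**Figure D5:**
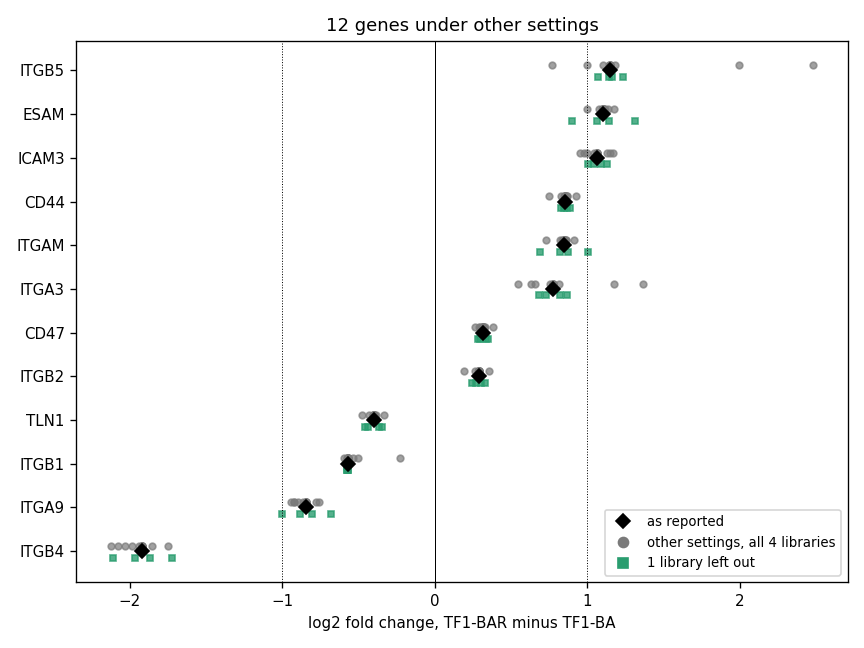
Log2 fold change (x axis, TF1-BAR minus TF1-BA) of the 12 genes with an adjusted p under 0.05 (y axis). Black diamonds are the values as reported, grey circles the values under other settings with all 4 libraries, and green squares the values with 1 library left out. No point crosses 0. The grey points of ITGB5 reach 2.48 and those of ITGA3 1.36, both from limma voom on fragments, while the points of ITGB4 stay below -1.7.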

How the data were processed

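RNA of 2 TF1-BA and 2 TF1-BAR libraries was sequenced as paired-end reads. The authors discarded poor-quality sequences, mapped the reads to GRCh38 with TopHat and ran the Cufflinks pipeline, and the submitters' processing notes name TopHat2 2.0.13, Cufflinks 2.2.0 and Cuffdiff 2.2.0. The values the authors deposited are FPKM for each of 32673 genes in each library, not raw counts, so the DESeq2 of the paper was not the test here. The release of the gene annotation and the strand setting are not given in the sources used here. Samples were grouped by the labels' name of the line. Of the other columns, symbols, identifiers and positions were used.

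FPKM were compared as log2(FPKM + 0.5) by limma 3.58.1 in R 4.3.3 (eBayes with a trend), TF1-BAR minus TF1-BA, in the 15519 genes whose mean FPKM reached 0.5, with Benjamini-Hochberg adjustment over all of them. The thresholds follow the paper's methods, with a log2 fold change of 1 or more in either direction and an adjusted p below 0.05. The test was also run on simulated data with known changes. The fragments behind the FPKM were recovered as the whole numbers (tolerance 0.0005) that fit all 4 libraries, for 30655 of the 30853 genes above 0, and gave library sizes of 18042299 and 15465497 fragments in TF1-BA and 15761642 and 16074303 in TF1-BAR. They cover counting error only, and no level is read from 3 fragments or fewer.

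The members, the other gene lists and the marker lists were chosen with earlier results of these data known. Every member is named: those that pass the adjusted p with their value in each library, the rest by range. Of the other adhesion genes, those that passed both thresholds are named, at most 3 per direction and list, with SELE, SELP and ITGA2B, and 1 further gene that the rule names is not reported here. Neighbours, overlapping genes and single markers were named after their values were seen. TNS3, ICAM4, FGB, LAMA1, COL4A1, PF4 and MS4A1 were not analysed here. The replicate numbers come from the titles and are not said to mark shared cultures. Alternatives were other pseudocounts, filters, scalings and forms of the test, a replicate block, no fold threshold, subtraction of the chromosome median, limma voom on recovered fragments, and leaving out each library.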

Additional observations from a re-analysis of the deposited data

How the results depend on the processing

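The direction of all 12 genes with an adjusted p under 0.05 held under every alternative in which they were tested; a mean of at least 1 FPKM left out ITGB5 and ITGA3. The count of upregulated members, 3 as reported, was 1 with 1 FPKM added (ESAM), 1 with quantile normalization (ESAM), 1 with the chromosome median subtracted (ITGB5) and 8 with no fold threshold. That of downregulated members, 1 as reported, was 4 with no fold threshold. Members with an adjusted p under 0.05, 12 as reported, were 5 with no filter on low values (ITGB1, ITGB4, ICAM3, ITGB5 and CD44), where 30853 genes were tested, 13 with rescaling to TPM (FERMT3 added), 13 with quantile normalization (FERMT3 and ITGB7 added, ITGA3 lost) and 14 with limma voom (ITGAV and ITGB7 added). They were 10 with a mean of at least 1 FPKM, 9 with eBayes without the trend (TLN1, CD47 and ITGB2 lost) and 9 with the chromosome median subtracted (ITGA3, CD47 and ITGB2 lost). Among other adhesion genes, 7 as reported, 41 passed with no fold threshold. Over all genes, 737 as reported, the count was 487 with 1 FPKM added, 1136 with limma voom on recovered fragments and 4167 with no fold threshold. The causes of the differences between pseudocounts, scalings and tests were not tested. Quantile normalization set the share of higher calls over all genes to 51.5%, with 359 higher and 338 lower, in place of 64.3%, with 474 and 263.

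With each library left out in turn, upregulated members numbered 0 to 4, downregulated members 0 to 2, members with an adjusted p under 0.05 0 to 10, other adhesion genes 1 to 8 and all genes called 42 to 783. The low ends came without a TF1-BA library: all genes called were 144 without replicate 1 and 42 without replicate 2 of TF1-BA, and 427 without TF1-BAR replicate 2. The lone library of a line is then assumed to vary like the other line.

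A fit with the replicate number as a block called 755 genes, including the same 4 members, and left 10 members with an adjusted p under 0.05; ITGA3 (0.0552) and ITGB2 (0.05001) were no longer under it. The deviations of same-numbered libraries correlated at 0.0646, so the numbers were not taken as pairs, and with 2 numbers no more can be said.

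Genes with estimates near 0 changed sign. With upper-quartile scaling the log2 fold change was -0.0175 for ITGAX and -0.0121 for PTK2, and with rescaling to TPM 0.0316 for F11R. Quantile normalization gave -0.0562 for ITGAX, -0.0274 for ITGB3 and -0.0272 for PTK2. Subtracting the chromosome median gave -0.112 for ITGAX, -0.0808 for ITGB3, -0.0391 for ICAM1, -0.0547 for PECAM1, -0.0331 for CD151 and -0.0591 for PTK2. With each library left out in turn, the log2 fold change ran from -0.190 to 0.00875 for ITGA5, from -0.212 to 0.04996 for ITGAL, from -0.0475 to 0.0618 for ITGAX, from -0.0625 to 0.127 for ITGB3, from -0.0116 to 0.129 for PECAM1, from -0.0959 to 0.0306 for F11R, from -0.0369 to 0.189 for CD151 and from -0.0239 to 0.0498 for PTK2. Members with few fragments (ITGA1, ITGB8, VCAM1) cannot be compared at this depth.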
